A study of Mus musculus with 16 samples.

Results

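The last megabase of assembled sequence on mouse chromosomes 1 to 19 was examined for R-loops, structures in which an RNA pairs with 1 strand of the DNA and displaces the other. In the GRCm38 assembly each of these chromosomes closes with a gap of 100000 bp that stands in for the telomere, so the window was the final 1100000 bp of the chromosome, gap included. All peaks with their summit in a window were taken from the 8 deposited lists and merged where they overlapped or touched. This gave 558 peaks in 334 regions, out of 49028 merged regions on the 19 chromosomes and out of 77297 peaks in the lists. The windows hold 18.5 Mb of known bases, which is 0.774% of the known bases of the 19 chromosomes.

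The peaks come from DNA:RNA hybrid immunoprecipitation sequencing (DRIP-seq), in which the monoclonal antibody S9.6 pulls hybrids out of DNA cut with the restriction enzymes MseI, DdeI, AluI and MboI. The cells were NIH/3T3, a line of mouse embryonic fibroblasts, either wild type (WT) or knocked out for Xpo4 by CRISPR-Cas9 (KO). Xpo4 encodes exportin 4, which carries cargo out of the nucleus, and the methods describe 1 knockout genotype with both copies edited alike. RNase R, an exonuclease that digests linear RNA but not circles, was added before the pull-down in the RNase R+ groups and only its buffer in the RNase R- groups. Each of the 4 groups (KO RNase R-, KO RNase R+, WT RNase R- and WT RNase R+) had 2 replicate libraries, and the labels do not say whether replicates came from separate cultures, so p-values here measure the spread between libraries, which may be technical. In the WT RNase R- list of replicate 1 every peak name gives the number 2, but its values are not those of replicate 2, and it was kept under its label. Peak lists give no check of the knockout itself. The 8 input libraries were not analysed here.

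Telomeres of the mouse are long arrays of the hexamer TTAGGG that close each chromosome. The sequence just before them, the subtelomere, holds promoters from which the long noncoding RNA TERRA is transcribed into the telomere, so that its UUAGGG repeats match the strand that reads TTAGGG towards the end and pair with the other. TERRA is known to form R-loops at telomeres, while the genes farther inside carry R-loops mostly where they are transcribed, at promoters and along GC-rich stretches. Mouse chromosomes are telocentric, and the windows studied lie at the end away from the centromere.

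The main result concerns the places where the assembly runs into the telomere. Arrays of at least 2 TTAGGG copies in a row were searched on both strands, and arrays within 500 bp of each other were joined. At 17 of the 19 chromosome ends such an array ended at the gap, and 13 of the 17 had a peak. The arrays differ in length and in how often they are broken: that of chromosome 7 (peak in 8 lists) has 88 copies in 1 unbroken run, and that of chromosome 10 (peak in 5 lists) has 56 copies with a longest run of 14. That of chromosome 15, with 11 copies in all, had no peak in any list.

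The assembly holds only this first part of each telomere. A stretch of perfect repeats as long as a read of 150 bases occurs at 11 of the 17 ends, and such a stretch reads the same at every one of them. The authors kept reads with a unique position, but from which telomere, and from how far inside it, a fragment within an array came cannot be told. Levels at the ends are therefore those of reads placed on the assembled arrays, whichever telomere they came from. Differences between ends are given as descriptions. The control library of the peak caller is not known and the inputs were not analysed. How much of a level reflects pull-down of hybrids was therefore not tested.

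The terminal arrays were the most widely called regions of the windows. Peaks lay on them in all 8 lists at the ends of chromosomes 2, 7, 12, 14 and 18, in 7 lists at chromosome 16, in 6 lists at chromosomes 1, 3 and 19, in 5 lists at chromosome 10, in the 4 KO lists at chromosome 13, in both KO RNase R- lists at chromosome 11 and in 1 list at chromosome 17. Of the 334 regions, 5 were called in all 8 lists (1.50%), and all 5 were terminal arrays, against 0.0653% of all merged regions on the 19 chromosomes. By list, 12 and 13 terminal arrays had a peak in KO RNase R-, 11 and 11 in KO RNase R+, 10 and 9 in WT RNase R-, and 6 and 5 in WT RNase R+. The number fell from group to group, and the groups did not overlap.

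**Figure D1:**
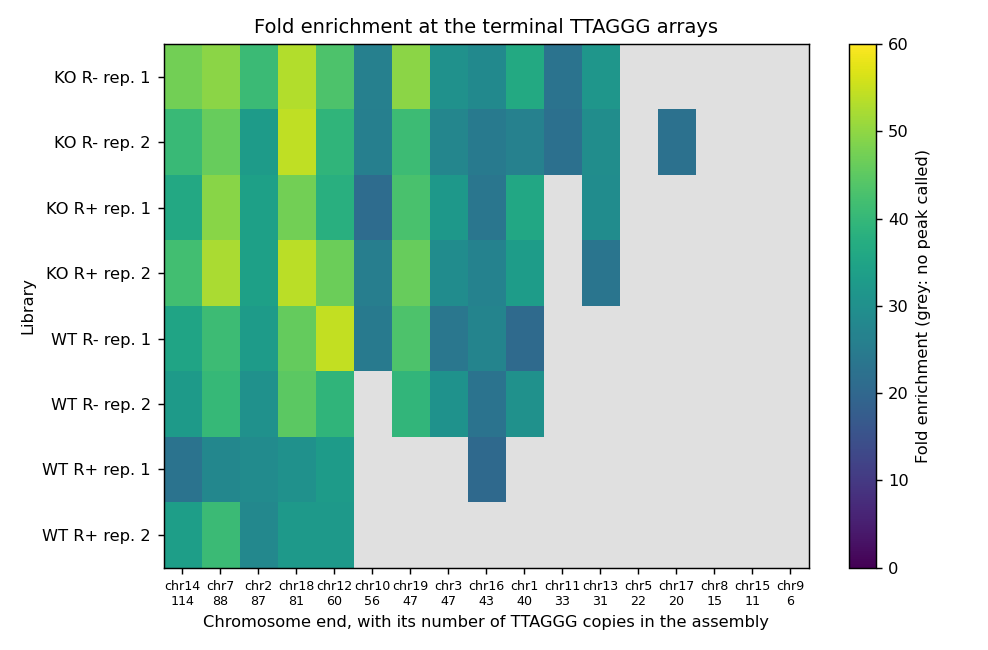
Fold enrichment of the peak on each terminal TTAGGG array (columns, ordered by the number of copies in the assembly) in each library (rows), with grey where no peak was called. The 5 ends called in all 8 lists hold 60 to 114 copies, and the 4 ends with no peak in any list hold 6 to 22.

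Fold enrichment is the caller's ratio of the number of fragments over the summit to the level its model gives for that place, with 1 added to each. At the end of chromosome 12 (chr12:120028501-120029042, 7255 bp beyond Tmem196, which encodes a transmembrane protein) it was 43.3 and 39.3 in KO RNase R-, 37.9 and 46.5 in KO RNase R+, 54.5 and 39.3 in WT RNase R-, and 32.9 and 32.3 in WT RNase R+. At the end of chromosome 7 (chr7:145340917-145341479, 16831 bp beyond Mrgprd, the gene of a sensory-neuron receptor) it was 49.7 and 46.1, 49.2 and 52.3, 41.1 and 40.2, and 27.8 and 40.9 in the same order. At the end of chromosome 14 (chr14:124801541-124802265) it was 47.3 and 40.7, 36.3 and 41.9, 35.2 and 32.6, and 22.8 and 33.7. At all 3 ends both WT RNase R+ libraries lay below both KO RNase R- libraries. At the end of chromosome 2 (chr2:182012694-182013244) it was 41.0 and 32.8, 34.0 and 34.1, 33.0 and 30.4, and 28.9 and 27.9. At the end of chromosome 18 it was 53.1 and 54.2, 47.1 and 53.7, 45.8 and 44.9, and 30.5 and 32.5. These last 2 ends had both WT RNase R+ libraries below every other library.

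The other called ends had fold enrichments of the same order. Chromosome 19 (chr19:61331276-61331586) had 39.5 to 49.7 over its 6 lists, chromosome 1 (chr1:195371711-195371991) had 20.6 to 36.4, and chromosome 3 (chr3:159939405-159939700) had 23.8 to 31.9. The chromosome 3 array lies 741 bp beyond Wls, the gene of the carrier that brings Wnt proteins to the cell surface. Chromosome 16 (chr16:98107442-98107787) had 20.6 to 28.6 over 7 lists, chromosome 10 (chr10:130594401-130595013) had 21.2 to 26.1 over 5, and chromosome 13 (chr13:120321419-120321657) had 23.4 to 31.6 over the 4 KO lists. Chromosome 11 (chr11:121982336-121982562) had 22.8 and 22.2 in KO RNase R-. Chromosome 17 (chr17:94887063-94887290) had 22.5 in KO RNase R- replicate 2 alone, on a summit height of 42 fragments, against 680 or more at every other end in that library. Within their own lists the terminal arrays stood near the top by fold enrichment: the first 1% of the list held 12 of 12 and 13 of 13 in KO RNase R-, 9 of 11 and 10 of 11 in KO RNase R+, and 10 of 10 and 4 of 9 in WT RNase R-. In the much shorter WT RNase R+ lists it held 0 of 6 and 1 of 5, and the lowest terminal peaks stood at 6.56% and 3.76% of the list.

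The height of a summit in fragments was recovered from the deposited fold enrichment and p of each peak, for 558 of the 558 window peaks. At the chromosome 12 end it was 3536 and 3163 fragments in KO RNase R-, 3506 and 3471 in KO RNase R+, 1603 and 1701 in WT RNase R-, and 219 and 288 in WT RNase R+. Heights depend on the depth of a library, so they were scaled in 2 ways that do not rank the libraries alike. The first divided them by the lowest modelled level of the list, its background level (0.843 and 0.896 in KO RNase R-, 0.924 and 0.890 in KO RNase R+, 0.479 and 0.489 in WT RNase R-, 0.425 and 0.558 in WT RNase R+). Over the 5 ends called in every list, the geometric mean of this relative height was 5381 and 4388 in KO RNase R-, 4855 and 4898 in KO RNase R+, 3665 and 3601 in WT RNase R-, and 578 and 638 in WT RNase R+. The second, added after seeing the data, divided them by the stated number of uniquely mapped reads, which is lowest in WT RNase R- and highest in WT RNase R+ replicate 2. The geometric mean was then 206 and 174 fragments per 1000000 reads in KO RNase R-, 224 and 218 in KO RNase R+, 295 and 291 in WT RNase R-, and 13.9 and 13.6 in WT RNase R+. By both scalings the WT RNase R+ libraries lay far below the other 6. The WT RNase R- libraries lay below the 4 KO libraries by the first scaling and above them by the second.

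With RNase R, the height of the 5 ends over the background level differed by 0.01 on the log2 scale in KO (1.00-fold, with SDs of the log2 values of 0.21 without and 0.01 with RNase R, n = 2 each). In WT the difference was -2.58 on the log2 scale, that is 0.167 of the level without it (SDs 0.02 and 0.10, n = 2 each). Per 1000000 reads these differences were 0.22 in KO and -4.41 in WT. With RNase R, KO stood above WT by both scalings, 8.03-fold over the background level and 16.1-fold per 1000000 reads. Without RNase R the direction turned with the scaling: KO was 1.34-fold WT over the background level and 0.646-fold WT per 1000000 reads, so no direction is given. The mean fold enrichment of the same ends differed less, at 0.965 of the level in KO and 0.785 in WT. The modelled level moved with the height: it was 86.8 to 119 times the background level in the KO and WT RNase R- lists, and 18.1 and 17.4 times in WT RNase R+. These ends were taken because they had a peak in every list, and no test was run over them. Heights were not scaled to the E. coli DNA that was added to the samples, and in these bulk libraries fewer cells with a hybrid and fewer hybrids per cell cannot be told apart.

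**Figure D2:**
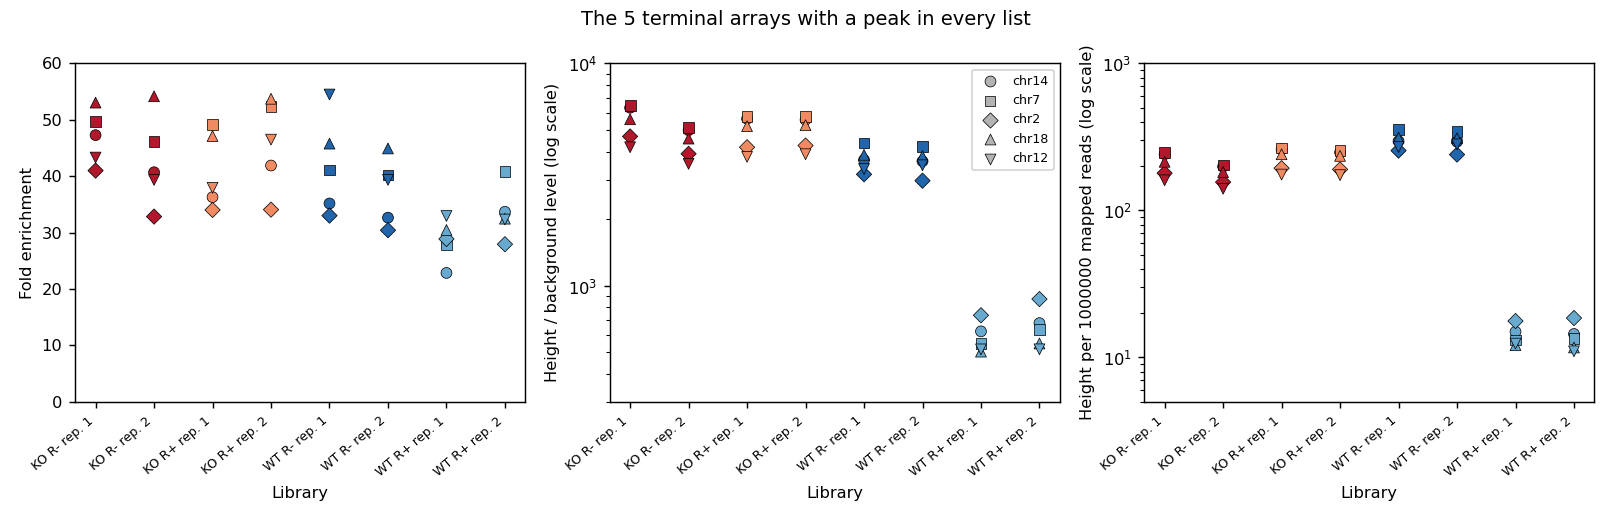
Fold enrichment (left) and summit height divided by the list's background level (middle, log scale) or by each 1000000 uniquely mapped reads (right, log scale) at the 5 terminal arrays called in every list, by library, with 1 symbol per chromosome. Both WT RNase R+ libraries sit lowest on both height scales (geometric means 578 and 638, and 13.9 and 13.6), while WT RNase R- lies below KO in the middle panel and above it in the right one.

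Ends with more assembled copies were called in more lists. The 12 terminal arrays of 30 or more copies all had a peak in at least 2 lists, while 1 of the 5 with fewer had one. The rank correlation between the number of copies and the number of lists was 0.936 over the 17 ends, and that between copies and summit height was 0.844 over 12 ends in KO RNase R- replicate 1 and 0.878 over 13 ends in replicate 2. The points share libraries and the array's length, so these are descriptions, given without a test.

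Long arrays away from the gap had a peak less uniformly. Of the 10 other arrays of 6 or more copies in the windows, 1 had a peak, the 15-copy array of chromosome 6 that lies 50.0 kb from the gap (6.50-fold in KO RNase R- replicate 1). The one with the most copies, 46 on chromosome 19 but with a longest run of 4, had a peak in 0 of the 8 lists. Away from the windows, 10 of 13 arrays of 30 or more copies had a peak, and arrays on chromosomes 3 and 6 had one in all 8 lists. The longest runs of these 13 arrays were of 2 to 15 copies, against 14 to 88 at the 12 terminal arrays of that size. Distance from the gap and unbroken length therefore cannot be told apart here. At the chromosome 3 array the height over the background level was 416 and 321 in KO RNase R-, 433 and 351 in KO RNase R+, 148 and 196 in WT RNase R-, and 28.3 and 43.0 in WT RNase R+. Per 1000000 reads it was 15.9 and 12.8, 19.999 and 15.6, 11.9 and 15.9, and 0.680 and 0.916 in the same order. Both WT RNase R+ libraries were lowest by both scalings, and the other groups overlapped per 1000000 reads. Arrays of at least 2 copies, long and short together, occurred at 3.56 per Mb in the windows and at 0.464 per Mb elsewhere. In the windows 17 of 66 were terminal. Of all these arrays, 39 of 66 in the windows and 874 of 1103 elsewhere had 2 to 5 copies. Regions on such an array made up 15 of the 334 regions (4.49%) and 22 of 48694 elsewhere (0.0452%). The 15 are the 13 terminal arrays, the chromosome 6 array and a region in an intron of Noc2l on chromosome 4. Noc2l encodes a nucleolar histone-binding protein, and the array in its intron has 2 to 5 copies (6.51-fold and 5.80-fold in KO RNase R-).

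The windows as a whole held about as many peaks as the rest of their chromosomes, apart from WT RNase R+. The windows had 193 and 220 peaks in KO RNase R-, 42 and 40 in KO RNase R+, 31 and 20 in WT RNase R-, and 6 and 6 in WT RNase R+. From the density in the rest of each chromosome, 200 and 244, 48.8 and 45.6, 30.9 and 17.2, and 1.85 and 2.47 were expected. The ratio of observed to expected was 0.963 and 0.903 in KO RNase R-, 0.860 and 0.877 in KO RNase R+, 1.00 and 1.16 in WT RNase R-, and 3.25 and 2.43 in WT RNase R+. The KO libraries were all under 1, the WT libraries all over it, and WT RNase R+ stood apart from the other 6. The share of a library's peaks that lay in the windows was 0.677% to 0.756% in KO, 0.819% and 0.954% in WT RNase R-, and 2.46% (95% exact Clopper-Pearson interval 0.908 to 5.28) and 1.88% (0.693 to 4.05) in WT RNase R+. These intervals cover counting error only.

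Over the 8 libraries the mean log2 ratio was 0.28, a 1.21-fold excess (exact sign-flip permutation test, two-sided, p = 0.406, 4 libraries above 0 and 4 below). The KO/WT difference in the log2 ratio was -0.86 (-0.21 without and -1.50 with RNase R), with an exact stratified permutation p of 0.0556, the smallest that its 36 arrangements can give, and 0.0926 after Benjamini-Hochberg adjustment over the 5 tests. The RNase R+/RNase R- difference was 0.54, made of 1.19 in WT and -0.10 in KO (exact stratified permutation p = 0.333, adjusted 0.406). Both differences turned when peaks on TTAGGG arrays were left out, to 0.67 for KO/WT and -0.73 for RNase R. No test passed the threshold of 0.05, and the design cannot reach it for a single genotype or treatment contrast.

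Most of the WT RNase R+ excess was terminal arrays. They were all 6 window peaks of replicate 1 and 5 of the 6 of replicate 2. The last one (chr3:159779065-159779509, 10.3-fold) lies in a tandem repeat with a period of 20 bp. Once peaks on TTAGGG arrays were left out, an alternative chosen after seeing the data, the observed over expected ratio was 0.894 and 0.846 in KO RNase R-, 0.636 and 0.637 in KO RNase R+, 0.682 and 0.642 in WT RNase R-, and 0 and 0.407 in WT RNase R+. All 8 libraries were then below 1. The WT RNase R+ values rest on 0 and 1 peaks where 1.84 and 2.46 were expected, too few to show a difference. Over the other 6 libraries the mean log2 ratio was -0.47 (exact sign-flip permutation p = 0.0312, the smallest that 6 libraries can give), and with all peaks it was -0.064 (exact sign-flip permutation p = 0.406). The libraries share 1 cell line and the same windows, so a fixed property of the windows would give all of them the same sign. These p-values therefore do not cover variation between chromosome ends.

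**Figure D3:**
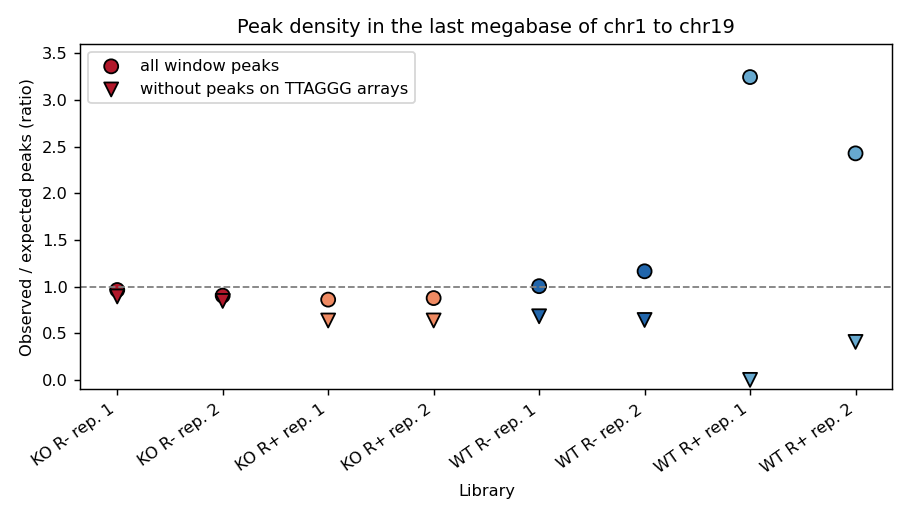
Observed over expected number of peaks in the windows for each library, with all window peaks (circles) and without peaks on TTAGGG arrays (triangles), and a dashed line at 1. Without the arrays all 8 libraries lie between 0 and 0.894.

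Peaks off the arrays were sparser in the outer part of the windows than in the rest of the chromosomes. In the 500 kb next to the gap, peaks off the arrays numbered 69 and 82 in KO RNase R-, 6 and 9 in KO RNase R+, 7 and 3 in WT RNase R-, and 0 and 1 in WT RNase R+. Per Mb of known bases this was 7.50 and 8.92 in KO RNase R-, against 10.6 and 13.0 in the rest of the chromosomes, and 0.652 and 0.979 in KO RNase R+, against 2.59 and 2.43. In WT RNase R- it was 0.761 and 0.326, against 1.58 and 0.870. The outer part was below the rest of the chromosomes in 8 of 8 libraries, which share 1 cell line and the same windows. In WT RNase R+ it was 0 and 0.109 per Mb, against 0.0993 and 0.131, on too few peaks to show a difference. In the inner 500 kb the density was 11.8 and 13.3 per Mb in KO RNase R-, 2.67 and 2.14 in KO RNase R+, and 1.50 and 0.856 in WT RNase R-. WT RNase R+ had 0 and 0 peaks there, against 0.0993 and 0.131 per Mb in the rest. The inner part was below the rest in 5 of 8 libraries, the WT RNase R+ libraries among them. The split was chosen after seeing the profile and was not tested. Protein-coding genes had their midpoint in the outer part at 13.0 per Mb and in the inner part at 16.2 per Mb, both above the 8.64 per Mb of the rest of the chromosomes.

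**Figure D4:**
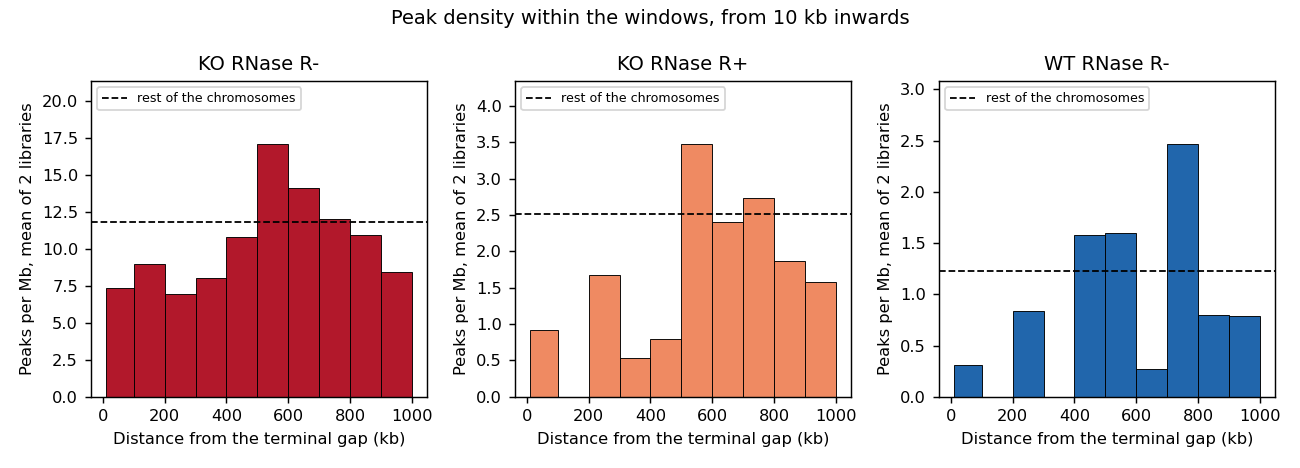
Peaks per Mb of known bases against the distance from the terminal gap, as the mean of the 2 libraries of a group, from 10 kb inwards (so that terminal arrays are left out), with a dashed line at the density of the rest of the chromosomes. In KO RNase R- the 4 bars up to 400 kb lie between 6.96 and 8.97 per Mb and the bar at 500 to 600 kb reaches 17.1.

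Window peaks were more numerous in KO lists and in RNase R- lists, as peaks were in the lists as a whole, and neither difference passed the test. KO had 8.13-fold more window peaks than WT without RNase R and 6.38-fold more with it (mean log2 difference 2.85, exact stratified permutation p = 0.0556, adjusted 0.0926). In the rest of the chromosomes the ratio was 10.0 without and 21.9 with RNase R. Without RNase R there were 4.98-fold more window peaks than with it in KO and 3.91-fold more in WT (mean log2 difference of RNase R+ from RNase R- -2.14, exact stratified permutation p = 0.0556, adjusted 0.0926). In the rest of the chromosomes the same ratio was 4.68 in KO and 10.2 in WT. Both p-values are the smallest that the design allows. Background levels were higher in KO lists (0.843 to 0.924) than in WT lists (0.425 to 0.558), and stated read totals were lowest in WT RNase R-. The part of either in these numbers was not tested.

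By region, 94 of the 334 (28.1%) were called in both KO RNase R- lists and in neither WT RNase R- list, against 25.9% of all merged regions. In the opposite direction 1 was called (0.299%), against 0.379%. With RNase R, 17 regions (5.09%) were called in both KO lists and in neither WT list, against 4.27%, and 0 in the opposite direction, against 0.114%. Within KO, 75 regions (22.5%) were called in both RNase R- lists and in neither RNase R+ list, against 20.6%. The reverse held for 1 region (0.299%), against 0.614%. A single list called 205 regions (61.4%), against 63.6%. All of these shares lie near the background, so by these region calls the windows resembled the whole lists. The regions called in all 8 lists were the exception. Of the 17 regions called in both KO RNase R+ lists and in neither WT list, 5 lay on TTAGGG arrays. By number of peaks the windows differed from the rest: with RNase R, KO/WT was 6.38-fold against 21.9-fold. In WT, the RNase R-/RNase R+ ratio was 3.91 in the windows against 10.2 in the rest.

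The region called in both WT RNase R- lists and in neither KO RNase R- list lies between genes 26431 bp from Ipo8, the gene of an importin (chr6:148743958-148744252, 7.44-fold and 7.95-fold in WT RNase R-, and 9.77-fold in KO RNase R+ replicate 1). The region called in both KO RNase R+ lists and in neither KO RNase R- list lies in the noncoding gene Gm20752 (chr3:159272789-159273025, 6.76-fold and 6.88-fold). Replicates shared few regions off the arrays: 95 of 290 in KO RNase R- (32.8%), 12 of 48 in KO RNase R+ (25.0%), 5 of 27 in WT RNase R- (18.5%) and 0 of 1 in WT RNase R+. In the rest of the chromosomes the shares were 32.5%, 22.6%, 11.1% and 34.8%.

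Another tandem repeat held the most widely called region off the telomere arrays. It lies between genes on chromosome 9 (chr9:124256352-124257965, 237 kb from the gap) and was called in 6 lists. Its fold enrichment was 10.1 and 8.44 in KO RNase R-, 8.10 and 10.6 in KO RNase R+, and 15.8 and 14.3 in WT RNase R-, with no peak in WT RNase R+. Both WT RNase R- libraries were above the 4 KO libraries. Its bases match themselves best at a step of 31 bp (83.8% of bases). The 180 bases around its highest summit are shown, with capitals on the 10-base word that recurs most often.
Chromosome 9 repeat (chr9:124256728-124256907, plus strand): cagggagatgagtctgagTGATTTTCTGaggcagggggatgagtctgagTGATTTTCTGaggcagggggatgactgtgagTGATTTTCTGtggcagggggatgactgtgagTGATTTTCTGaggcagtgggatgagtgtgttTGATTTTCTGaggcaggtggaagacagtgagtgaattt
The word TGATTTTCTG was then searched on both strands of the 19 chromosomes. Clusters with at least 3 copies, at most 500 bp apart, occurred 4 times in the windows and 3 times elsewhere. The 3 elsewhere hold 3 to 5 copies and had no peak. The windows hold 39 copies at the chromosome 9 region and 3 at another place on chromosome 9, and 102 and 38 copies in neighbouring clusters on chromosome 13. The cluster of 102 copies lies in an intron of Tmem267, a gene for a transmembrane protein, 719 kb from the gap, and it held 3 regions. The cluster of 38 copies had no peak.

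On chromosome 13 the region chr13:119598323-119599166 had 15.7-fold and 19.4-fold enrichment in WT RNase R- and 13.1-fold in KO RNase R- replicate 2. The region chr13:119601799-119602907 had 14.7-fold and 11.2-fold in WT RNase R-, 7.03-fold in KO RNase R- replicate 1 and 5.43-fold in KO RNase R+ replicate 1. The third, chr13:119599811-119600476, was called once, in WT RNase R- replicate 1 (6.71-fold). All 4 regions with this repeat were called in a WT RNase R- library, and 0 in WT RNase R+. The word was taken from the chromosome 9 region, itself chosen for its number of lists. The other 3 regions lie in 1 cluster, so the 4 are not independent and their share is not compared. By cluster, 2 of the 4 in the windows had a peak. Of the window peaks with at least 10-fold enrichment, WT RNase R- replicate 1 had 13, of which 10 lay on terminal arrays and 3 on this repeat. Replicate 2 had 13, of which 9 and 3 did, and the last (10.1-fold, chr19:60610169-60610466, 821 bp from AC108409.1) lay on neither. KO RNase R- had 31 and 34 such peaks, of which 18 and 20 lay on neither.

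The strongest KO regions off the repeats lay in or near genes and were called in no WT list. They were chosen for their lower fold enrichment of the replicates, after values were seen. Hnrnpa1, which encodes an abundant RNA-binding protein that regulates splicing, had 3 regions within its 6.26 kb on chromosome 15. The strongest (chr15:103245456-103246029, exonic) had 19.5-fold and 28.0-fold enrichment in KO RNase R- and 17.7-fold and 10.99-fold in KO RNase R+. A second (chr15:103242643-103243162, exonic) had 10.5-fold and 7.75-fold, and 10.0-fold and 10.5-fold. Itga5, the gene of the alpha 5 subunit of the fibronectin receptor, had 4 regions in 22.5 kb about 577 kb from the same gap. The one at its promoter (chr15:103365281-103366499) had 25.5-fold and 21.5-fold in KO RNase R- and 9.01-fold and 19.05-fold in KO RNase R+. At both genes all 4 KO libraries had a peak and the 4 WT libraries had none. Absence from WT was the common case, since 28 of the 319 window regions off the arrays were called in any WT list. The 180 bases around the strongest summits are printed on the coding strand, with capitals on CG, since methylation-free promoters are rich in this pair.
Itga5 promoter (chr15:103365946-103366125, minus strand): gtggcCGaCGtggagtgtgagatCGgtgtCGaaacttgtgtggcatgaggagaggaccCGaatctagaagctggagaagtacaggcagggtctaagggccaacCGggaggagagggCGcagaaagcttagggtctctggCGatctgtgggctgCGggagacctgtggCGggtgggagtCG
Hnrnpa1 exon (chr15:103245674-103245853, plus strand): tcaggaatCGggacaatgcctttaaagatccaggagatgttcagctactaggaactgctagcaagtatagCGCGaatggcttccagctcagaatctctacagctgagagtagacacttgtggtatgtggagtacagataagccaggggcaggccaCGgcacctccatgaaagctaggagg
The Itga5 stretch holds 11 CG pairs and the Hnrnpa1 stretch holds 4. Of the whole regions, that of Itga5 has 60.7% GC and that of Hnrnpa1 has 46.5%.

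Other regions of this kind were found at promoters and between genes. The promoter of Gmeb2, a DNA-binding modulator of glucocorticoid response (chr2:181287444-181288319, 70.9% GC), had 12.8-fold and 18.3-fold enrichment in KO RNase R- and 8.23-fold and 11.1-fold in KO RNase R+. The promoter of Csnk1d, casein kinase 1 delta, which sets the pace of the circadian clock (chr11:120990373-120990969, 75.0% GC), had 14.9-fold and 23.4-fold in KO RNase R- and 6.38-fold in KO RNase R+ replicate 2. A region 7410 bp from Kl, the gene of the ageing-related hormone co-receptor klotho (chr5:150944823-150945197, 35.5% GC, 82.9% of bases in repeats), had 25.0-fold and 20.8-fold, and 14.2-fold and 15.8-fold. These regions differ in base composition from 35.5% to 75.0% GC, and repeat-masked bases make up 8.79% to 82.9% of them. None of the 3 had a peak in a WT list, as held for most window regions off the arrays.

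The genes overlapped by the most regions were mostly long. Ccdc7a (331 kb, chromosome 8) and Tbcd, a tubulin-folding cofactor (165 kb, chromosome 11), had 7 each, and Fgf14, a regulator of neuronal sodium channels (699 kb, chromosome 14), had 6. Bicd1, an adaptor of the dynein motor (154 kb, chromosome 6), and Gm42906 (365 kb, chromosome 5) had 5 each. Regions called in 2 or more lists numbered 3 in Ccdc7a, 1 in Tbcd, 4 in Fgf14, 1 in Bicd1 and 1 in Gm42906. Gm42906 overlaps Stard13, which had 4 regions, so a region can count for both. Among the 5 genes, Gm42906 alone had a region in a WT library, 1 in WT RNase R- replicate 1. Per length they had 0.858 to 4.24 regions per 100 kb, against 17.8 in Itga5 and 47.9 in Hnrnpa1. In all, 169 of the 334 regions (50.6%) overlapped an annotated gene, and 113 genes were overlapped, 92 of them protein-coding.

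By the position of the strongest summit, 40 of the 319 regions off the arrays lay within 1000 bp of a transcript start, 16 in exons, 119 in introns and 144 outside genes. In KO RNase R-, 13.5% and 10.5% of window peaks lay at such promoters, against 10.6% and 10.4% of peaks elsewhere, while promoters take up 9.22% of positions in the windows and 6.25% elsewhere. In WT RNase R-, 0 of 31 and 1 of 20 window peaks did, against 7.00% and 8.29% elsewhere. Regions off the arrays had widths of 211 to 1614 bp and medians of 42.3% GC and 73.0% repeat-masked bases. Regions on arrays had 50.4% GC and were wholly masked at the median.

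Windows differed between chromosomes. The most regions were found on chromosome 15 (35, against 27.4 expected from the rest of the chromosome), chromosome 6 (28 against 21.8), and chromosomes 4 and 19 (22 each, against 21.3 and 28.6). The fewest were on chromosomes 12 and 18 (7 each, against 18.8 and 14.9) and chromosome 14 (9 against 12.6). Relative to the expected number chromosome 13 was highest (19 against 12.7, 1.49-fold) and chromosome 12 lowest (0.371-fold), and the windows of 5 of 19 chromosomes had more regions than expected. On chromosome 12, 1 of 116 other megabases had fewer regions than the window. On chromosome 15, 79 of 100 did.

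Windows with more protein-coding genes had more regions relative to expectation (Spearman's rho 0.687 over 19 windows, which share libraries, given without a test). The windows of chromosomes 12, 14 and 18 hold 3, 2 and 3 protein-coding genes, and that of chromosome 15 holds 23. Other windows departed from this: chromosomes 4 and 10 hold the most genes, 43 and 38, and had 1.04 and 0.968 of the expected regions. Chromosome 3, with 3 genes, had 0.964 of the expected regions. The rho was 0.342 with GC content and -0.204 with the share of repeat-masked bases. Over all 19 chromosomes the windows were close to the rest in GC content (41.8% against 41.9%) and in cut sites of the 4 enzymes (18.7 against 18.5 per kb), and they held more repeat-masked bases (38.1% against 33.4%).

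**Figure D5:**
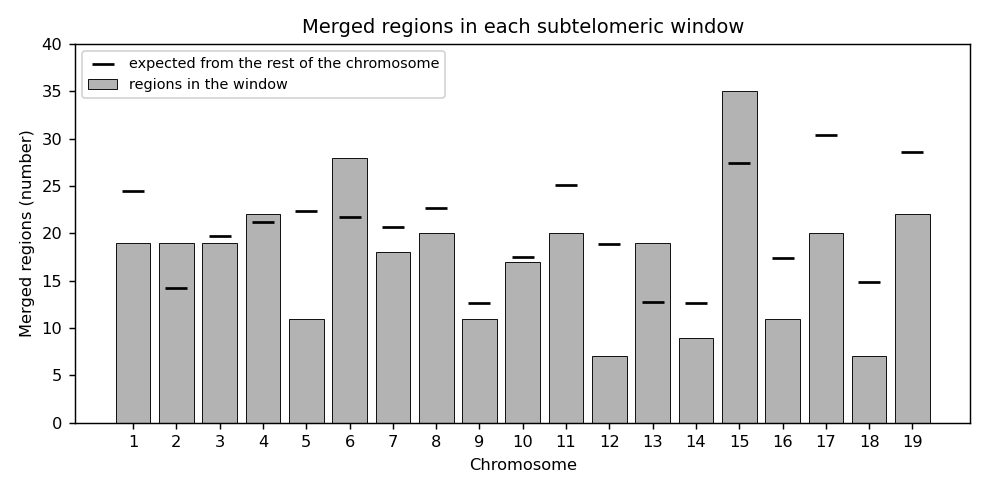
Merged regions in the window of each chromosome (bars) and the number expected from the density in the rest of the same chromosome (black dashes). Chromosome 15 has the most with 35 and chromosomes 12 and 18 the fewest with 7 each.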

How the data were processed

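Peak lists of 8 DRIP-seq libraries were analysed, 2 for each of 4 groups taken from the sample titles. According to the study's methods, paired reads were trimmed, aligned to GRCm38 with Bowtie2, filtered with SAMtools 1.1 for duplicates, mismatches and unique position, and passed to MACS2 for peak calling, replicate by replicate. The control library is not given in the sources used here. The deposited fold enrichment is a ratio of summit height to modelled level, and the deposited p and q values are −log10 values. Positions are as deposited, and the score column was not used. The lists hold no read totals. The totals of uniquely mapped reads that the study states were used only to scale summit heights as an alternative, and whether they were counted before the removal of duplicates is not given in the sources used here.

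The summit (start plus offset) placed a peak in the last 1100000 bp. Expected numbers came from the density per known base in the rest of the same chromosome, summed over 19 chromosomes. Tests were exact permutation tests over libraries of log2(number + 0.5), two-sided, with Benjamini-Hochberg adjustment over 5 tests. Heights are whole numbers that fit the fold and a Poisson p, recovered for 77293 of 77297 peaks, and this step was tested on simulated data. Genes are GENCODE M21, and sequences are from the RefSeq GRCm38 assembly. Python 3 with numpy, scipy and pandas was used. Named regions were those called in the most lists, the highest in each group by the lower replicate, the chromosomes with most and fewest regions, the genes with most regions, all regions on telomere repeats and the region nearest an end (chromosome 14). The members, lists and rules were chosen with earlier results of these data known. Alternatives were other windows, thresholds, length measures and left-out libraries.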

Additional observations from a re-analysis of the deposited data

Results flagged for a closer look

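The effect of RNase R on the density of the windows went opposite ways in the genotypes. In WT both RNase R+ libraries were above both RNase R- libraries, and in KO both were below, with a difference of 1.29 between the effects on the log2 observed over expected ratio (1.19 in WT and -0.10 in KO). The same held for the share of peaks that lay in the windows, where the effects differed by 1.33 percentage points (1.28 in WT and -0.05 in KO). The difference was not tested. These were 2 of 8 measures looked at, and both rest on the same counts, of which the WT RNase R+ libraries have 6 each, 6 and 5 of them on terminal TTAGGG arrays. Without peaks on arrays the effects did not go opposite ways. The mean observed over expected ratio was then 0.870 without and 0.636 with RNase R in KO, and 0.662 and 0.203 in WT.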

How the results depend on the processing

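With peaks of at least 10-fold enrichment, the mean log2 observed over expected ratio of the windows rose to 1.69 (exact sign-flip permutation p = 0.0156), and with peaks shared by both replicates to 0.90 (p = 0.0312 by the same exact permutation test). Without peaks over 3 times their list's lowest modelled level, it turned to -0.73 (exact permutation p = 0.00781), the KO/WT difference to 0.62 and the RNase R+/RNase R- difference to -0.31. Without peaks on TTAGGG arrays, added after seeing the data, these were -0.76, 0.67 and -0.73, with exact permutation p-values of 0.00781, 0.0556 and 0.0556. Over the 6 libraries other than WT RNase R+, also added, the mean ratio was -0.064 with all peaks and -0.47 without array peaks (exact permutation p = 0.406 and 0.0312). The arrays are among the peaks that both settings leave out. The sign-flip tests take libraries of 1 cell line with the same windows as independent. Those over 8 libraries without array peaks also count the WT RNase R+ lists, with 0 and 1 peaks. Under the other alternatives run (windows of 600000, 2100000 and 5100000 bp, a common p limit, covered kb, without chromosome 15, a pseudocount of 1, other length measures) the 5 results kept direction and side of the threshold. Leaving out 1 library at a time gave 0.11 to 0.35 for the ratio, 2.69 to 3.00 and -2.30 to -1.99 for the KO/WT and RNase R numbers, and -0.94 to -0.77 and 0.46 to 0.63 for their ratios. The windows' ratio was 0.11 without WT RNase R+ replicate 1 and 0.15 without replicate 2, against 0.28 with both.

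Heights of the 5 ends per 1000000 reads, in place of the background level, turned KO/WT without RNase R from 0.42 to -0.63, and moved KO/WT with RNase R from 3.01 to 4.01 and RNase R from 0.01 to 0.22 in KO and from -2.58 to -4.41 in WT. Leaving out 1 library gave 0.27 to 0.57, 2.93 to 3.08, -0.14 to 0.15 (its sign turned without KO RNase R- replicate 2 and without KO RNase R+ replicate 2) and -2.65 to -2.51.

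Same-numbered replicates deviated together in 1 of 4 pairs of groups (correlations of -0.36, -0.02, -0.17 and 0.49 over 5 to 22 regions), so the numbers were not taken to pair the samples. In a fit that treated replicate number as a block, differences were 2.85, -2.14, -0.86 and 0.54 (exact sign-flip permutation p = 0.125, 0.125, 0.125 and 0.500, where 0.125 is the smallest it allows). The WT RNase R+ lists are limited by their few peaks, 0 and 1 off the arrays in the windows. Their stated read totals were not the lowest, but their background levels were 0.425 and 0.558, below those of the KO lists. The part of sequencing depth in their few peaks was not tested.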
